A study of Canis lupus familiaris with 6 samples.

Results

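The keratin genes of CPEK cells, a cell line of canine epidermal keratinocytes, were examined in RNA-Seq libraries made after treatment with cold atmospheric microwave plasma (CAMP). A gene was taken as a keratin when its symbol was KRT followed by a number and, where present, a letter, so keratin-associated proteins were left out. This rule found 59 of the 35993 genes in the gene table, 30 of type I and 29 of type II. The cells, of wild-type genotype and kept in medium with fetal bovine serum, were exposed directly to CAMP for 30 s (dCAMP, 3 libraries) or to the gas without plasma (gas control, 3 libraries). In both groups the medium was renewed after 15 min, and total RNA was collected 24 h later for stranded mRNA libraries. All libraries came from this 1 line, and nothing in the labels says whether those of a group came from separate cultures, so p-values measure the spread between these libraries, which may be technical.

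Keratins are the intermediate filament proteins of epithelial cells, and each filament is built from pairs of an acidic type I and a basic type II keratin. Which pair a cell makes depends on its state. Basal keratinocytes of the epidermis make KRT5 with KRT14, cells that leave the basal layer change to KRT1 with KRT10, and keratinocytes at a wound edge or in culture make KRT6, KRT16 and KRT17. Simple epithelia make KRT8 with KRT18, mucosal epithelia make KRT4 with KRT13, and hair follicles make sets of their own.

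The libraries held 43084921 to 54082634 counts assigned to genes. On the log2 of CPM (counts scaled to the normalized library size) plus 0.5, Pearson's coefficient across the 14708 genes tested was 0.9966 to 0.997 between the dCAMP libraries and 0.9557 to 0.9897 between the gas libraries. Gas 1 stood apart from the dCAMP libraries (0.9485 to 0.9525), while gas 3 was close to them (0.9952 to 0.9962). These coefficients are across genes, which are not independent replicates. Fold changes without gas 1 and without gas 3 are therefore plotted for 29 of the 30 keratins tested, and each keratin that gained a call without gas 3 is given with its adjusted p there. As gas 3 was the gas library closest to the dCAMP libraries, calls gained without it are no separate support. Without gas 1, 0 keratins had an adjusted p under 0.05 in edgeR (0.00667% of all genes). The label of the line was checked against marker genes: all 10 keratinocyte markers, among them KRT5 and KRT14 themselves, the basal transcription factor TP63 and the adhesion molecules DSG3, ITGA6 and ITGB4, had a mean of at least 1 FPKM (fragments scaled to transcript length and mapped reads). The keratinocyte markers together held 50536 to 60888 CPM in the gas control and 46992 to 49894 CPM in dCAMP-treated cells. Most of this sum was KRT5 and KRT14 (28157 and 20630 CPM in gas 1), so it largely repeats the keratin values. Of the 7 fibroblast markers, 3 (DCN, LUM and PDGFRB) had no count, and the list summed to 5.18 to 5.77 CPM in the gas control and 5.53 to 5.83 CPM in dCAMP-treated cells. The melanocyte list (TYR, DCT and TYRP1 without a count) summed to at most 0.843 CPM in any library and the immune list (PTPRC and CD3E without a count) to at most 1.99 CPM. The endothelial list summed to 15.6 to 18.4 CPM in the gas control and 18.8 to 24.7 CPM in dCAMP-treated cells, with PECAM1 without a count. Its other members had counts in every library. VWF had 11.5 to 14.2 CPM in the gas control and 13.2 to 18.6 CPM in dCAMP-treated cells. KDR had 3.41 to 4.44 and 4.69 to 5.98 CPM, and CDH5 had 0.339 to 0.589 and 0.686 to 0.933 CPM. The Merkel cell list summed to 32.0 to 42.5 CPM and 44.5 to 48.1 CPM, nearly all of it SOX2, while KRT20 had 1 count in a single library and PIEZO2 had none.

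A count in at least 1 library was found for 38 of the 59 keratins, and 22 had a mean of at least 1 FPKM over the 6 libraries, 10 of them type I and 12 type II. A count filter kept 30 keratins for the test, namely these 22 and 8 with lower levels. The 2 most abundant genes of the whole table, by mean FPKM, were keratins. KRT5, the type II keratin of basal cells, had 10287 ± 1075 FPKM in the gas control (mean ± SD, n = 3) and 8892 ± 357 FPKM after dCAMP (n = 3). KRT14, its type I partner, had 9960 ± 1332 FPKM and 8057 ± 280 FPKM. The wound-associated keratins came next, with KRT6B at rank 5 and KRT16 at rank 9 among all genes. KRT6B had 3329 ± 642 FPKM in the gas control and 3109 ± 184 FPKM in dCAMP-treated cells, and KRT16 had 2815 ± 781 FPKM and 2585 ± 280 FPKM. KRT17 had 1892 ± 331 FPKM and 1698 ± 48.5 FPKM, and KRT6A had 1820 ± 450 FPKM and 1645 ± 93.9 FPKM. KRT75, a type II keratin known from the companion layer of the hair follicle, had 909.9 ± 208 FPKM and 811.4 ± 32.2 FPKM, and KRT15, a basal and follicle stem cell keratin, had 423.6 ± 52.8 FPKM and 418.9 ± 9.37 FPKM. This order from KRT5 to KRT15 was the same in 6 of 6 libraries for every neighbouring pair but KRT17 and KRT6A, where KRT17 was the higher in 4 of 6.

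**Figure D1:**
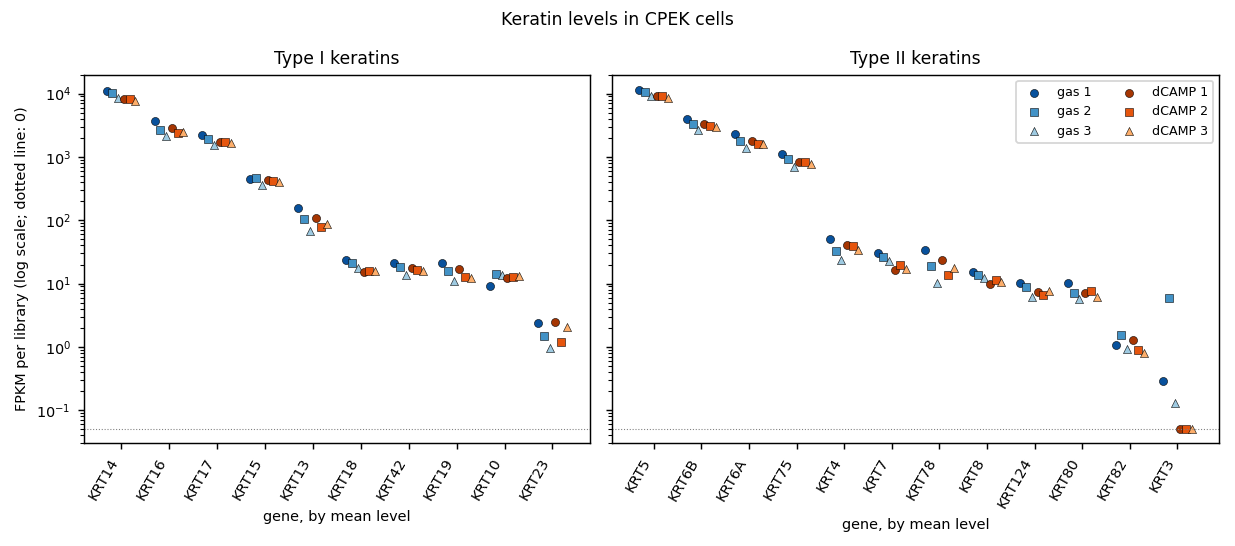
FPKM of the 22 keratins with a mean of at least 1 FPKM, by library (points, log axis; values of 0 stand on the dotted line), for type I keratins at left and type II at right. KRT5 and KRT14 lie between 7734 and 11195 FPKM in all 6 libraries, 8 keratins lie above 300 FPKM, and KRT3 has most of its signal in gas 2.

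The remaining expressed keratins were at least 4.21 times below KRT15 in mean FPKM. The mucosal pair was the highest of them, KRT13 with 109.3 ± 44.3 FPKM in the gas control and 90.6 ± 14.7 FPKM in dCAMP-treated cells, and KRT4 with 35.8 ± 13.8 and 38.1 ± 3.40 FPKM. Of the 7 keratins of simple epithelia, 6 were present at low levels, from KRT7 (26.4 ± 3.85 and 17.8 ± 1.92 FPKM) and KRT18 (20.7 ± 3.21 and 15.6 ± 0.259 FPKM) over KRT19 (15.9 ± 4.98 and 14.0 ± 2.51 FPKM) and KRT8 (13.7 ± 1.55 and 10.6 ± 0.802 FPKM) to KRT80 (7.69 ± 2.41 and 7.02 ± 0.756 FPKM) and KRT23 (1.60 ± 0.719 and 1.92 ± 0.661 FPKM), and KRT20 had the 1 count named above. Keratins of differentiating layers were few. KRT10 had 12.2 ± 2.77 FPKM in the gas control and 12.7 ± 0.387 FPKM in dCAMP-treated cells, and KRT78, a suprabasal type II keratin, had 21.01 ± 12.2 and 18.4 ± 5.20 FPKM. KRT1, the usual type II partner of KRT10, had no count in any library, and a count of 0 allows up to 3 counts per library, a limit that covers counting error only. KRT2, of the upper spinous layer, had 7 counts in gas 2, 6 in gas 3 and none elsewhere. KRT14 was 1230, 725 and 628 times as high as KRT10 in FPKM in gas libraries 1, 2 and 3, and 669, 635 and 594 times in dCAMP libraries 1, 2 and 3.

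No count in any library was found for 21 keratins, 15 of type I and 6 of type II. They include KRT1 and KRT77 among the cornifying keratins, KRT12 and KRT24 among the corneal and mucosal ones, KRT25, KRT26, KRT27, KRT28 and KRT71 of the inner root sheath, 7 of the 16 hair and nail keratins (KRT31, KRT33B, KRT34, KRT35, KRT37, KRT39 and KRT40), and KRT222, KRT41, KRT89, KRT126 and KRT127. A further 8 keratins (KRT2, KRT20, KRT32, KRT33A, KRT36, KRT73, KRT84 and KRT88) had counts but too few for the test, with at most 14 counts in any library. The 59 loci lie in 2 clusters of CanFam3.1, 29 on chromosome 9 (21143037 to 22010014) and 30 on chromosome 27 (2189269 to 2883727). The first holds only type I keratins, and the second holds the type II keratins and the type I gene KRT18, which lies beside KRT8.

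All keratins together made up 7.20%, 6.40% and 5.50% of the summed FPKM in gas libraries 1, 2 and 3, and 6.04%, 5.74% and 5.61% in dCAMP libraries 1, 2 and 3. The groups overlapped, with gas 1 highest and gas 3 lowest of the 6 libraries. Type I keratins held 48.6%, 48.0% and 47.6% of the keratin FPKM in the gas libraries, against 47.2%, 46.5% and 47.2% with dCAMP, so the summed levels of the 2 types were close to each other in every library, and the share of type I was the lower in each dCAMP library. KRT5 and KRT14 together made 64.0 ± 2.46% of the keratin FPKM in the gas control (mean ± SD, n = 3) and 61.7 ± 1.17% after dCAMP (n = 3). KRT6A, KRT6B, KRT16 and KRT17 together made 30.8 ± 2.19% and 32.9 ± 1.13%. Both pairs of shares overlapped between the groups. The 8 keratins from KRT5 to KRT15 held 98.9% to 99.2% of the keratin FPKM in every library. These shares describe sums over the keratins, and no test was made on them.

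**Figure D2:**
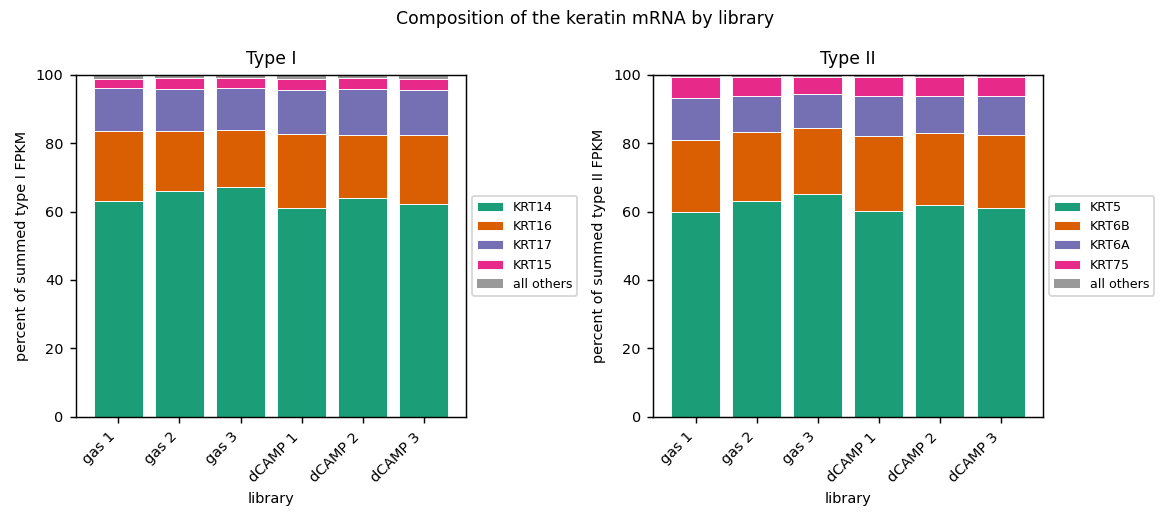
Stacked bars of the share of each abundant keratin in the summed FPKM of its type, per library, with type I at left and type II at right. KRT14 makes 61.1% to 67.3% of type I and KRT5 makes 59.8% to 65.2% of type II, and the 4 named keratins of each type leave a thin remainder for all others.

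The comparison of dCAMP-treated cells with the gas control asked whether a 30-s exposure was followed by a different keratin expression 24 h later. In edgeR (quasi-likelihood F-test, p adjusted by Benjamini-Hochberg over 14708 genes), 0 of the 30 keratins tested had an adjusted p under 0.05, as had 0.0% of all genes tested, and 7 keratins had an unadjusted p under 0.05, a share of 20.7% among all genes tested. DESeq2 called 1 keratin (2.59% of all genes), or 0 when genes at 0 in any library were left out (1.25%). limma on log2 FPKM called 0, and limma's voom with sample quality weights called 16, in a fit that called 60.8% of all genes. In 8 keratins every dCAMP library lay below every gas library (20.9% of all genes tested), and in 0 keratins every dCAMP library lay above (19.0% of all genes tested). KRT3, with a count of 0 in each dCAMP library, is among the 8. The log2 fold change was below 0 in 25 of the 30 (47.6% of all genes tested), with a median of −0.19 against 0.03 over all genes tested. Without gas 1 it was below 0 in 18 of 30, with a median of −0.072, and without gas 3 in 28 of 30, with a median of −0.42. These are counts over bulk RNA, in which fewer cells of a kind and less RNA per cell cannot be told apart.

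The gas libraries stood on both sides of the dCAMP libraries. Of the 22 keratins with at least 1 FPKM, 19 were above every dCAMP library in gas 1 (42.3% of all genes tested) and KRT10 was below (44.2%). In gas 2, 14 were above (38.0%) and KRT4 was below (40.9%). In gas 3, 7 were above (32.3%) and 14 were below every dCAMP library (32.1%). KRT3 reached 1 FPKM only through gas 2 (5.95 FPKM) and was 0 in each dCAMP library. It is therefore counted as above in all 3 gas libraries, which is no separate support. Over the other 21 keratins, with KRT3 left out for its zeros, the median log2 ratio to the dCAMP mean was 0.42 in gas 1, 0.18 in gas 2 and −0.20 in gas 3. Over all genes tested, the same medians were −0.01, −0.02 and −0.00. Of the 30 keratins tested, 20 were highest in gas 1 and lowest in gas 3 among the gas libraries (36.3% of all genes tested, with 36.6% in the opposite order). The length of the transcripts moved with the same difference. The median log2 ratio of gas 1 to gas 3 was 0.13 in the 3677 genes with the shortest transcripts (up to 1567 bases) and −0.21 in the 3677 with the longest (from 4245 bases). Between these, it was 0.10 in genes of 1568 to 2642 bases and −0.02 in those of 2643 to 4244 bases. Over these 22 keratins, whose longest transcripts were 1437 to 3438 bases, it was 0.56. The part of transcript length in the keratin values was not tested.

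**Figure D3:**
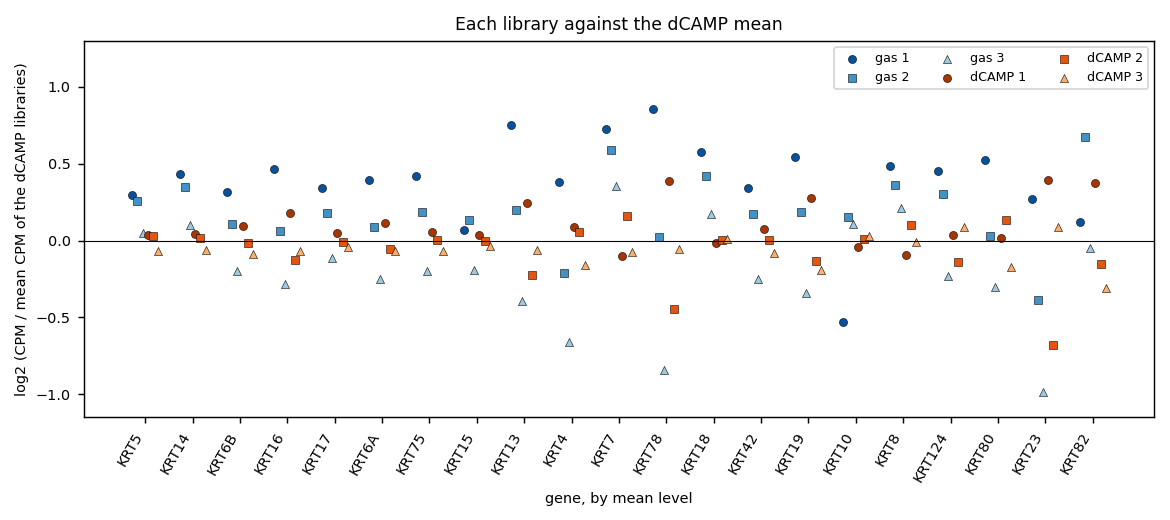
Log2 ratio of each library's CPM to the mean CPM of the 3 dCAMP libraries for 21 keratins with at least 1 FPKM, ordered by level (KRT3 is left out because its dCAMP values are 0). Gas 1 lies above the dCAMP points for 18 of these genes, gas 3 lies below them for 14, and all 3 gas points lie above all dCAMP points for KRT5, KRT14, KRT7, KRT18 and KRT8.

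Basal keratins were lower in dCAMP-treated cells for both members of the main pair. KRT5 (gene ID 100687760; chromosome 27, 2567178 to 2573543) measured 28157, 27330 and 23749 CPM in gas libraries 1, 2 and 3, against 23468, 23433 and 21828 CPM in dCAMP libraries 1, 2 and 3. The groups did not overlap, but gas 3 was only slightly above dCAMP 1. The log2 fold change was −0.21 (standard error 0.08), with an adjusted p of 0.240 from edgeR, and it was −0.18 without gas 1 and −0.32 without gas 3. KRT14 (gene ID 100685323; chromosome 9, 21190672 to 21195060) measured 20630, 19478 and 16363 CPM in the gas libraries, against 15716, 15486 and 14651 CPM with dCAMP, again without overlap. Its log2 fold change was −0.30 (edgeR, adjusted p = 0.221, with a standard error of 0.10), which is 18.8% lower, and it was −0.25 without gas 1 and −0.44 without gas 3. KRT15 (gene ID 100685404; chromosome 9, 21249887 to 21254131) measured 841.9, 881.2 and 704.4 CPM in the gas libraries, against 824.8, 800.8 and 782.6 CPM with dCAMP. All 3 of its dCAMP values fell inside the range of the gas values, and the log2 fold change was −0.01 (standard error 0.10). Without gas 3, where 33.1% of all genes had an adjusted p under 0.05, the adjusted p from edgeR was 0.0214 for KRT5, 0.0203 for KRT14 and 0.0984 for KRT15. The edgeR fit without gas 1 gave an adjusted p of 0.265 for KRT5, 0.218 for KRT14 and 0.991 for KRT15.

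The simple epithelial keratins KRT7, KRT18 and KRT8 had the lowest log2 fold changes among the keratins of at least 1 FPKM, KRT3 apart. KRT7 (gene ID 477602; chromosome 27, 2812709 to 2827451) measured 54.8, 49.9 and 42.4 CPM in the gas libraries, against 30.9, 37.1 and 31.5 CPM with dCAMP. Its lowest gas value was above its highest dCAMP value, and the log2 fold change was −0.56 (edgeR, adjusted p = 0.221, with a standard error of 0.14), or 32.3% lower. It was the keratin that DESeq2 called, at an adjusted p of 0.0427, and its adjusted p ran from 0.000257 to 0.285 over the alternatives with all 6 libraries and from 0.0214 to 0.502 over those without 1 library. KRT18 (gene ID 477601; chromosome 27, 2189269 to 2193368) measured 38.0, 34.2 and 28.9 CPM in the gas libraries, against 25.2, 25.7 and 25.8 CPM with dCAMP. Its dCAMP values lay within 1 CPM of each other and below all gas values, with a log2 fold change of −0.40 (edgeR, adjusted p = 0.221, with a standard error of 0.13). KRT8 (gene ID 486513; chromosome 27, 2221608 to 2229343), the partner of KRT18, showed 30.4, 27.8 and 25.1 CPM in the gas libraries, against 20.3, 23.2 and 21.5 CPM with dCAMP. It also showed no overlap, and its log2 fold change was −0.36 (edgeR, adjusted p = 0.221, with a standard error of 0.12). For these 3 genes the log2 fold change stayed between −0.70 and −0.31 in every fit that left out 1 library, and without gas 3 the adjusted p was 0.0214 for KRT7, 0.0219 for KRT18 and 0.0292 for KRT8. KRT19, a type I keratin of simple epithelia and of some basal cells, did not separate. It showed 35.9, 28.1 and 19.5 CPM in the gas libraries, against 29.9, 22.5 and 21.6 CPM with dCAMP (log2 fold change −0.17, standard error 0.25, and 0.032 without gas 1). KRT80 had 39.5, 28.02 and 22.3 CPM and 27.8, 30.2 and 24.4 CPM, and KRT23 had 4.28, 2.72 and 1.79 CPM and 4.66, 2.22 and 3.76 CPM, with overlap in both.

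**Figure D4:**
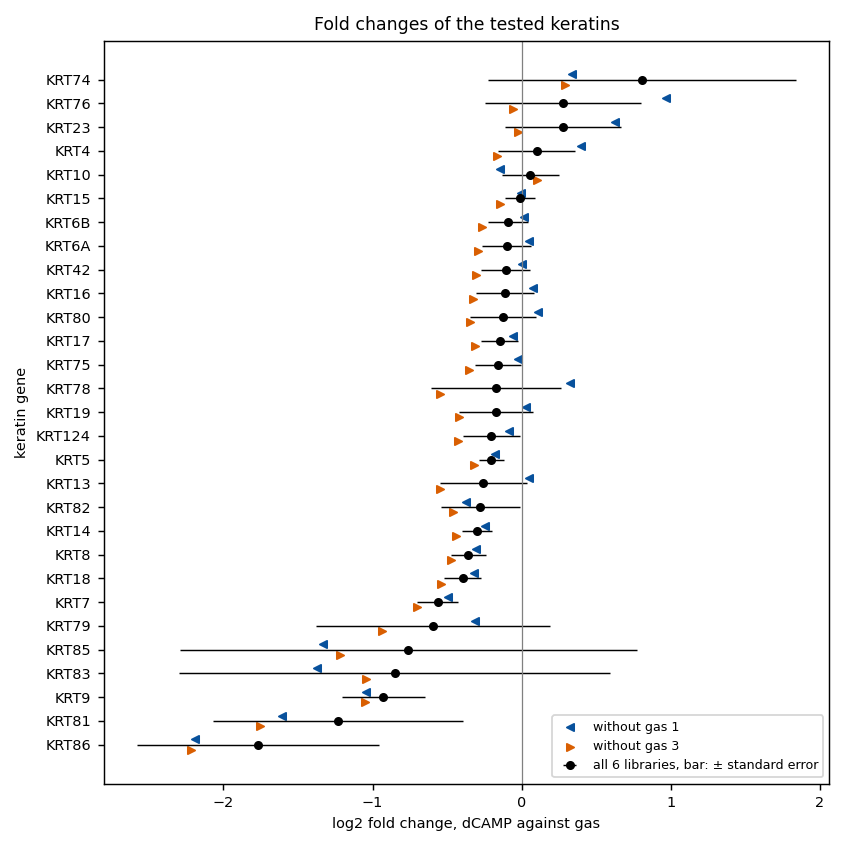
Log2 fold change of dCAMP against gas for 29 of the 30 keratins tested (black points, bars are ± standard error; KRT3 is left out because its dCAMP counts are 0), with the values without gas 1 (blue) and without gas 3 (orange). KRT5, KRT14, KRT8, KRT18 and KRT7 lie below 0 in all 3 fits. So do KRT9, KRT15, KRT17, KRT75, KRT79, KRT81, KRT82, KRT83, KRT85, KRT86 and KRT124. The fit without gas 2 is not plotted, and in it KRT15, KRT81, KRT83 and KRT85 were above 0 (0.023, 0.31, 0.21 and 1.60). KRT6A, KRT6B, KRT16, KRT13, KRT19, KRT42, KRT78 and KRT80 turn from below to above 0 without gas 1.

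The wound-associated keratins overlapped between the groups in all 4 genes. KRT6A (gene ID 486523; chromosome 27, 2609414 to 2623810) measured 5338, 4326 and 3427 CPM in the gas libraries, against 4406, 3923 and 3875 CPM with dCAMP. KRT6B (gene ID 100687987; chromosome 27, 2591954 to 2597321) measured 9899, 8587 and 6945 CPM and 8498, 7877 and 7492 CPM. In both, the 3 dCAMP values lay between gas 1 and gas 3. KRT16 (gene ID 490978; chromosome 9, 21167714 to 21170650) measured 6767, 5134 and 4045 CPM in the gas libraries, against 5551, 4491 and 4692 CPM with dCAMP, and KRT17 (gene ID 490977; chromosome 9, 21155007 to 21161407) measured 4585, 4097 and 3335 CPM and 3740, 3592 and 3504 CPM. Their log2 fold changes were −0.10 for KRT6A, −0.09 for KRT6B, −0.11 for KRT16 and −0.15 for KRT17, with standard errors of 0.16, 0.14, 0.19 and 0.12. Without gas 1 the values were 0.049, 0.014, 0.077 and −0.061, so the sign turned in the first 3. Without gas 3 the values for KRT6A, KRT6B, KRT16 and KRT17 were −0.30, −0.26, −0.32 and −0.31, and KRT17 alone of these 4 passed the threshold (adjusted p = 0.0303 from edgeR). The newer RefSeq annotation of the dog genome (UU_Cfam_GSD_1.0) holds all 59 gene IDs and gives 56 the same symbol. The exceptions are 2 genes named here, with the ID of KRT6B called KRT6A and the ID of KRT6A given only a locus name, and KRT126. These neighbouring genes are close copies, and reads that match both could have been split between them.

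The deposited transcript table divides KRT6A among 3 transcripts, while KRT6B has a single one. The transcript of 2029 bases held 66.7%, 62.6% and 57.7% of the counts of KRT6A with gas in replicates 1, 2 and 3, and 43.0%, 44.7% and 60.04% in dCAMP libraries 1, 2 and 3. The transcript of 2507 bases held 14.0%, 20.2% and 22.8% in the gas libraries, against 35.2%, 32.7% and 23.9% with dCAMP. The values of dCAMP 1 and dCAMP 2 stood apart from all gas libraries, whereas dCAMP 3 was next to gas 3. The third transcript, of 2108 bases, held 16.04% to 22.5% in any library. These counts are estimates by the authors' software for transcripts that share most of their sequence, and no test was made on them.

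The follicle keratin KRT75, with KRT42 and KRT124, followed the arrangement of the wound-associated keratins. KRT75 (gene ID 100683813; chromosome 27, 2635210 to 2645687) measured 2732, 2319 and 1776 CPM in the gas libraries, against 2124, 2048 and 1948 CPM with dCAMP, and the log2 fold change was −0.16 (standard error 0.16). It was −0.026 without gas 1 and −0.36 without gas 3, where KRT75 had an adjusted p of 0.0369 from edgeR. KRT42, a type I gene next to KRT17, had 45.5, 40.4 and 30.1 CPM and 37.8, 35.9 and 33.8 CPM (log2 fold change −0.11, standard error 0.17). KRT124, a type II gene next to KRT75, had 36.7, 33.2 and 22.9 CPM and 27.6, 24.4 and 28.6 CPM (log2 fold change −0.20, standard error 0.19). The log2 fold change of KRT124 was −0.083 without gas 1 and −0.43 without gas 3, where the adjusted p from edgeR was 0.0415. In all 3 genes gas 1 was the highest library and gas 3 the lowest.

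KRT13, KRT4 and KRT78, of mucosal and suprabasal epithelia, were highest in gas 1 and lowest in gas 3. KRT13 (gene ID 490983; chromosome 9, 21261233 to 21265564) measured 307.3, 209.7 and 138.9 CPM in the gas libraries, against 216.8, 156.8 and 174.9 CPM with dCAMP, and its log2 fold change was −0.26 (standard error 0.29), and 0.047 without gas 1. KRT4 (gene ID 100682832; chromosome 27, 2290152 to 2296884) measured 116.9, 77.3 and 56.7 CPM and 95.5, 93.1 and 80.3 CPM, with a log2 fold change of 0.10 (standard error 0.26) that was 0.40 without gas 1 and −0.16 without gas 3. KRT78 (gene ID 486514; chromosome 27, 2257161 to 2264945) measured 69.8, 39.2 and 21.6 CPM in the gas libraries, against 50.4, 28.3 and 37.1 CPM with dCAMP, and the log2 fold change of −0.17 (standard error 0.43) turned to 0.32 without gas 1. In none of the 3 did the groups separate. KRT10 (gene ID 491006; chromosome 9, 21863715 to 21868587) was the reverse of the other abundant keratins in gas 1. It showed 21.4, 34.3 and 33.2 CPM in the gas libraries, against 30.0, 31.1 and 31.5 CPM with dCAMP, so that gas 1 was below and gas 2 and gas 3 were above all dCAMP libraries (log2 fold change 0.06, standard error 0.19). Its locus and that of KRT23 overlap that of LOC106559288, and how reads at such loci were divided is not given in the sources used here. KRT76, a palate keratin below 1 FPKM, had 24 to 72 counts in the gas libraries, against 26 to 60 with dCAMP.

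Among the keratins with few counts, KRT3, a corneal type II keratin, was the only one with an unadjusted p under 0.05 that also differed 2-fold or more (1.09% of all genes tested, and 0.136% for those lower in dCAMP). The call was not kept in every fit. KRT86 took the place of KRT3 in both DESeq2 runs and KRT83 did so without dCAMP 1, while no keratin passed when 10 counts were required in all libraries or on log2 of FPKM plus 1. With its dCAMP counts of 0, KRT3 was left out before the test where 10 counts were required. The same held in the DESeq2 run that left out genes at 0 in any library. KRT3 (gene ID 100683401; chromosome 27, 2319976 to 2325986) measured 33, 797 and 18 counts across gas libraries 1, 2 and 3 but 0 in each library with dCAMP, and gas 2 thus held 94.0% of its counts. Taking 3 counts in each dCAMP library as the limit of a count of 0, KRT3 was at least 10.6-fold higher in gas 1, 226-fold in gas 2 and 5.06-fold in gas 3 than in dCAMP-treated cells. Its adjusted p was 0.226 from edgeR, and 0.201 to 0.502 in the fits without 1 library, apart from 0.0545 without gas 3. KRT9, the keratin of footpad epidermis, had 61, 101 and 72 counts in the gas libraries, against 29, 46 and 30 with dCAMP. Its groups did not overlap, and the log2 fold change was −0.93 (standard error 0.28, adjusted p = 0.221 from edgeR), or −1.05 without gas 3 (adjusted p = 0.0498). KRT9 stood at 0.584 ± 0.128 FPKM in the gas control and 0.299 ± 0.0953 FPKM in dCAMP-treated cells.

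Hair keratins had low levels, with KRT82 alone at a mean of at least 1 FPKM, and several had most of their counts in 1 library. KRT81 had 45, 268 and 23 counts across gas libraries 1, 2 and 3, against 47, 39 and 35 in dCAMP libraries 1, 2 and 3, and KRT86 had 13, 103 and 14 counts and 10, 10 and 9 counts. KRT85 had 0, 111 and 12 counts in the gas libraries, against 56, 5 and 0 with dCAMP, and KRT83 had 13, 215 and 81 counts and 143, 0 and 5 counts. Gas 2 was the highest library for all of them, as for KRT3, with 47.0% to 64.8% of the counts of these 4 genes. KRT82, of the hair cuticle, had 145, 242 and 148 counts in the gas libraries, against 173, 111 and 105 with dCAMP. Without gas 2, the log2 fold changes of KRT81, KRT83 and KRT85 turned from −1.23, −0.85 and −0.76 to 0.31, 0.21 and 1.60. That of KRT86, whose dCAMP counts were all below its gas counts, went from −1.77 to −0.31 and kept its sign. KRT81, KRT83, KRT85 and KRT86 are neighbours of like sequence on chromosome 27, so counts could have been split among them. KRT79 had 21, 18 and 8 counts in the gas libraries, against 16, 10 and 0 with dCAMP, and KRT74 had 0, 23 and 0 and 11, 17 and 11.

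**Figure D5:**
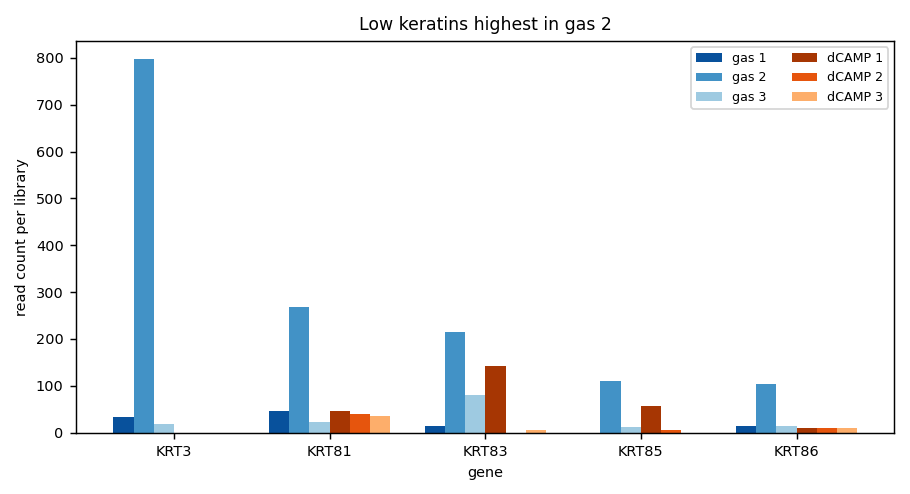
Read counts of KRT3, KRT81, KRT83, KRT85 and KRT86 in each library (bars; axis from 0). Gas 2 has the tallest bar for all 5 genes, with 797 counts for KRT3, and dCAMP 1 has 143 counts for KRT83 and 56 for KRT85.

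Ratios between keratins of the same library do not depend on how libraries are scaled, and they were chosen for display after the values had been seen. The genes of a ratio can differ in transcript length, as do KRT14 (1667 bases) and KRT5 (2264 bases). The part of transcript length in these ratios was not tested. KRT14 over KRT5 was 0.995, 0.968 and 0.936 in FPKM in gas libraries 1, 2 and 3, against 0.909, 0.898 and 0.912 in dCAMP libraries 1, 2 and 3. KRT17 over KRT14 was 0.198, 0.188 and 0.182 in the gas libraries, against 0.212, 0.207 and 0.213 with dCAMP. Neither ratio overlapped between the groups, although 3 libraries against 3 cannot give an exact two-sided permutation p below 0.1. KRT13 over KRT4 was 3.07, 3.17 and 2.86 in the gas libraries, against 2.65, 1.97 and 2.54 with dCAMP, also without overlap. KRT18 over KRT8 (1.56, 1.53 and 1.43 against 1.55, 1.37 and 1.495), KRT16 over KRT14 (0.328, 0.263 and 0.247 against 0.353, 0.290 and 0.320) and the sum of KRT16 and KRT17 over that of KRT6A and KRT6B (0.937, 0.900 and 0.897 against 0.920, 0.870 and 0.911) overlapped. KRT5 over KRT8 was 733, 776 and 746 in the gas libraries, against 915, 797 and 804 with dCAMP.

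Genes that accompany keratin filaments were taken from a list of 31, of which 22 were tested and 0 had an adjusted p under 0.05 in edgeR. By an unadjusted p, 8 of the 22 were lower (13.9% of all genes tested) and 1 was higher (6.81% of all genes tested) in dCAMP-treated cells, and the median log2 fold change was −0.13. DESeq2 called 1 of them in both of its runs (2.59% and 1.25% of all genes), voom with sample quality weights called 17 (60.8% of all genes), and edgeR without gas 3 called 13 (33.1% of all genes). Of the other filament proteins, VIM, the vimentin of mesenchymal and cultured cells, showed 606.2, 617.5 and 560.8 CPM in the gas libraries, against 378.2, 442.5 and 387.7 CPM with dCAMP. No value was shared between the groups, and the log2 fold change was −0.56 (edgeR, adjusted p = 0.221, with a standard error of 0.09), or −0.57 without gas 1 and −0.65 without gas 3. The nuclear lamins LMNA (−0.33, standard error 0.08) and LMNB2 (−0.52, standard error 0.14) also had all dCAMP values below the gas values on the log2 scale, while that of LMNB1 was 0.044 (standard error 0.13). NES, INA, NEFM and NEFH had no count. Among the linkers and organizers, the log2 fold change of SFN, the 14-3-3 protein of stratified epithelia, was −0.43 (standard error 0.14), PLEC, which ties filaments to hemidesmosomes, −0.35 (standard error 0.11), TRADD, which binds KRT18, −0.36 (standard error 0.12), TCHP, which binds keratin filaments, −0.33 (standard error 0.11), and FAM83H, which organizes keratin filaments, −0.32 (standard error 0.10). PKP2, a desmosomal plakophilin, was the one with an unadjusted p under 0.05 and a higher level, with 49.3, 58.3 and 60.9 CPM in the gas libraries, against 68.8, 67.1 and 71.8 CPM with dCAMP (log2 fold change 0.30, standard error 0.11, adjusted p = 0.226 from edgeR). DST, which ties filaments to hemidesmosomes, had the largest log2 fold change of the tested partner genes, 0.84 (standard error 0.35, adjusted p = 0.243 from edgeR). Its CPM of 202.7, 391.1 and 587.1 in the gas libraries were all below the 696.2, 712.3 and 708.6 with dCAMP, and leaving out gas 1 gave a log2 fold change of 0.51 and leaving out gas 3 one of 1.21 (adjusted p = 0.0274 from edgeR). CSNK1A1 (0.53, standard error 0.29) and YWHAZ (0.28, standard error 0.17) likewise had every dCAMP value above every gas value. Without gas 1 their log2 fold changes were 0.25 and 0.095, and without gas 3 they were 0.82 and 0.37. For CSNK1A1, gas 3 (640.4 CPM) was next to the lowest dCAMP value (647.4 CPM). Of the 22 partner genes tested, 4 had this order (19.0% of all genes tested) and 8 had the reverse (20.9%). DSP, the desmoplakin that anchors keratins at desmosomes, showed 3429, 3245 and 3338 CPM in the gas libraries, against 3721, 3407 and 3563 CPM with dCAMP, with a log2 fold change of 0.09 (standard error 0.07).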

How the data were processed

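RNA-Seq was carried out on 3 gas-treated and 3 dCAMP-treated libraries of CPEK cells. Per the submitters' processing notes, FastQC 0.11.7, Trimmomatic 0.38, HISAT2 2.1.0 and StringTie 2.1.3b were used with CanFam3.1. The deposited counts are whole read counts per gene or transcript without normalization, FPKM values, as deposited, had been scaled to transcript length and sequencing depth, and the deposited TPM values were used as an alternative. The annotation release is not given in the sources used here.

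Counts were analysed in R 4.3.3 with edgeR 4.0.16 (TMM factors of 0.981 to 1.03, filterByExpr, quasi-likelihood test, prior count of 2, Benjamini-Hochberg adjustment over 14708 genes). limma 3.58.1 and DESeq2 1.42.0 served as alternatives. Calls used an adjusted p under 0.05, or an unadjusted p under 0.05 together with a 2-fold difference. The standard error of a fold change was its absolute log2 value divided by the square root of F. The scripts were tested on simulated data.

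The keratins, role groups, markers and partner list were chosen with earlier results of these data known. Values in all libraries are given for keratins with a mean of at least 1 FPKM and for those called at a 2-fold difference, and for others by range or count. Of the partner list, genes with an unadjusted p under 0.05 are named, and LMNB1, DSP, DST, CSNK1A1, YWHAZ and the genes without a count were added after their values were seen, as were values for single keratins below 1 FPKM. Alternatives were DESeq2 on 2 gene sets, RLE and upper-quartile factors, TMM factors computed without keratins, total counts only (chosen after seeing the data), no filter, at least 10 counts in every library, a replicate block, voom with sample quality weights, limma on log2 of FPKM plus 1 or 0.1, and leaving out each library.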

Additional observations from a re-analysis of the deposited data

How the results depend on the processing

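The cause of the changes listed here was not tested. The number of keratins with an adjusted p under 0.05 was 0 in the main comparison, 1 with DESeq2, 16 with voom and sample quality weights (60.8% of all genes), and 0 to 9 in the fits without 1 library, with 9 without gas 3 (33.1%). The number that differed 2-fold at an unadjusted p under 0.05 was 1, but 3 with upper-quartile factors (1.34% of all genes), 6 with voom (6.87%), 0 with at least 10 counts in every library (0.808%) or on log2 of FPKM plus 1 (1.01%), and 1 to 4 without 1 library, with 4 without gas 3 (10.2%). In both DESeq2 runs (1.82% and 2.14%) the 1 keratin was KRT86 and not KRT3. KRT3, without a count in the dCAMP libraries, was not part of the fits that required counts in every library. The partner genes with an adjusted p under 0.05 numbered 0, but 1 in both DESeq2 runs, 17 with voom, and 0 to 13 without 1 library, with 13 without gas 3, under the same shares of all genes (2.59% and 1.25% for DESeq2). Counts in place of FPKM moved the keratin share from 5.80% to 6.22% in dCAMP-treated cells and from 6.37% to 7.12% in the gas control. The move in the gas control was within the SD of its libraries (0.850%). The type I share moved from 48.1% to 41.2% in the gas control and from 47.0% to 40.1% in dCAMP-treated cells. TPM and the summed transcript table moved none of these shares beyond the spread of the libraries.

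Of 519 alternative values of single keratins, 472 kept their direction and side of the threshold, 26 passed the threshold and 21 turned in sign. With upper-quartile factors the log2 fold change was −0.013 for KRT4 and −0.016 for KRT10, and with voom it was 0.011 for KRT78, −0.14 for KRT10 and −0.43 for KRT74. In the fits without 1 library the log2 fold change ranged from −0.26 to 0.014 for KRT6B, −0.32 to 0.077 for KRT16, −0.30 to 0.049 for KRT6A, −0.15 to 0.023 for KRT15, −0.55 to 0.047 for KRT13, −0.16 to 0.40 for KRT4, −0.54 to 0.32 for KRT78, −0.31 to 0.0035 for KRT42, −0.42 to 0.032 for KRT19, −0.15 to 0.15 for KRT10, −0.35 to 0.11 for KRT80, −0.023 to 0.63 for KRT23, −4.36 to 0.21 for KRT83, −1.75 to 0.31 for KRT81, −0.061 to 0.97 for KRT76 and −3.06 to 1.60 for KRT85.

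The groups share replicate numbers, and deviations from the group means of same-numbered libraries correlated across genes at 0.218, 0.051 and 0.085. Those of differently numbered libraries correlated at −0.237 to 0.147. These values do not settle whether the numbers mark pairs, and the main comparison did not take them as pairs. With the replicate block, 0 keratins had an adjusted p under 0.05, and 1 differed 2-fold at an unadjusted p under 0.05.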
